A study of Mus musculus with 9 samples.

Results

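The genes studied here are 10 members of the NRF2 program and of glutathione synthesis, namely Nfe2l2, Gclc, Gclm, Slc7a11, Gsr, Txnrd1, Srxn1, Hmox1, Nqo1 and Osgin1, chosen by symbol from a table of 54532 genes. Their RNA was measured by RNA-seq in 9 bulk livers of male C57BL/6 mice aged 5 to 7 weeks, with 3 libraries in each of 3 groups. The NC group (NC 1 to 3) held control mice without APAP, and whether they were given a vehicle injection is not stated in the sources used here. The study's methods give an overnight fast for all animals ahead of APAP and do not mention the NC mice separately. Mice of the APAP group (APAP 1 to 3) were given 500 mg/kg acetaminophen (APAP) by intraperitoneal injection after an overnight fast, and the tissue was taken 6 h afterwards. The AMSC group (AMSC 2 to 4) got that same APAP dose plus 200000 adipose-derived mesenchymal stem cells (AMSCs), isolated from inguinal fat of the same mouse strain. By the study's methods the cells were injected into the tail vein immediately after the APAP dose. This group was also sampled at 6 h. A group with AMSCs alone is not analysed here, so the AMSC group was compared with mice that had APAP and with mice that had neither.

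NRF2, encoded by Nfe2l2, is the transcription factor that switches on antioxidant genes. In resting cells KEAP1 binds NRF2 and hands it to a CUL3 ubiquitin ligase for degradation, so that its activity is set mainly by protein stability and not by its mRNA. When reactive molecules modify KEAP1, NRF2 escapes, pairs with a small MAF protein and binds antioxidant response elements near its targets. In the liver, APAP is oxidised by cytochrome P450 enzymes to a reactive quinone imine that consumes glutathione, the tripeptide thiol that the products of Gclc, Gclm, Slc7a11 and Gsr help to make or to recycle.

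The reference table of promoters held 7 of the 10 genes in 9 windows, each of 250 bases before and 50 bases after a RefSeq start on GRCm38.p6, and Hmox1, Gclc and Gsr had no entry. The core of the antioxidant response element, TGACNNNGC, was searched on both strands and lay in the windows of 4 of the 7 genes, against 12.4% of all 32851 windows. The AP-1 element TGANTCA, which Fos and Jun proteins bind and which can overlap the former, lay in those of 2 genes, against 7.8% of all windows. A form of the core with another base, TGAGNNNGC, was added after the windows had been read and lay in those of 3 genes, against 17.6%. These counts are per gene while the shares are per window. Txnrd1 had 3 windows, of which 1 held a match. For 5 genes the stretch from 250 to 31 bases before the start is printed in the direction of transcription, for the genes that hold a match to at least 1 of these motifs and passed the filter on low values. Slc7a11, which also holds a match, did not pass it. Capitals mark the matches.
Srxn1: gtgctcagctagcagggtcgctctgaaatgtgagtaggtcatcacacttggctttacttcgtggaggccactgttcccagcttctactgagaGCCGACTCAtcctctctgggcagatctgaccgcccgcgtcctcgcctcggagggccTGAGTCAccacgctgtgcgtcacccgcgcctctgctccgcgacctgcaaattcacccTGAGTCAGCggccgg
Osgin1: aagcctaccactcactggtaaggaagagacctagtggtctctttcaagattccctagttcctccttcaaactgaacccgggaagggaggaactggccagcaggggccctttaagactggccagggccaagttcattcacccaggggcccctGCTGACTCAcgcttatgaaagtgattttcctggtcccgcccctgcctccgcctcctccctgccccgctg
Gclm: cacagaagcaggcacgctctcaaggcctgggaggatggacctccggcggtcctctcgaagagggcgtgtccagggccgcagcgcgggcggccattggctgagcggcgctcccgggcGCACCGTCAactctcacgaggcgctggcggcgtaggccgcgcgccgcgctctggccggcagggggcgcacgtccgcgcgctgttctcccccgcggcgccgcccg
Nfe2l2: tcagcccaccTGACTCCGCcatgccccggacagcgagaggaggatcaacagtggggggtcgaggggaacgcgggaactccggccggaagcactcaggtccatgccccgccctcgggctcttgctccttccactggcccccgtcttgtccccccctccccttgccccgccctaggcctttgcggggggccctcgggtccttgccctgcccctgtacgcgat
Txnrd1: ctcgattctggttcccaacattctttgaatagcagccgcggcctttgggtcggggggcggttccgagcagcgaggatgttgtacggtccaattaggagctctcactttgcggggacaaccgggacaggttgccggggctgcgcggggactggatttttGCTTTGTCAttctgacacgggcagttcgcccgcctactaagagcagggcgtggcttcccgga

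These stretches lie at chr2:152105274-152105493 on the plus strand (Srxn1), chr8:119436897-119437116 on the plus strand (Osgin1), chr3:122245307-122245526 on the plus strand (Gclm), chr2:75704694-75704913 on the minus strand (Nfe2l2) and chr10:82858956-82859175 on the plus strand (Txnrd1, one of its 3 windows). Srxn1 carried the most matches, with TGAGTCA from 102 bases and again from 45 bases before the start. The latter run continued as TGAGTCAGC and so matched the AP-1 letters and the added core at once. A further match to the added core, TGAGTCGGC, lay from 158 bases before the start on the opposite strand, and TGACCTAGC, its match to the first core, lay past the start and outside the printed stretch. Osgin1 held the same TGAGTCAGC on the opposite strand from 99 bases before the start, again overlapping an AP-1 match. Gclm held TGACGGTGC from 134 bases before its start on the opposite strand, Nfe2l2 TGACTCCGC from 240 bases and Txnrd1 TGACAAAGC from 92 bases on the opposite strand. The window of Slc7a11 held only the added core (TGAGAAAGC from 97 bases before the start, opposite strand), and that of Nqo1 held none of these letters. A match is a description of letters, and such short windows leave out elements that lie farther away.

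RNA levels are given as FPKM, fragments per kilobase of gene, scaled by library, so that genes of unequal length can be set side by side. Reads on genes numbered from 13418921 to 16210930 per library, and 1 read on a gene of 1 kilobase equalled 0.0578 to 0.0807 FPKM. Of the 10 genes, 9 passed the filter on low values (a mean FPKM of 1 or more across all libraries) and were tested among 9699 genes with limma on log2(FPKM + 1). A DEG is a gene with a Benjamini-Hochberg adjusted p of at most 0.05 over all genes tested and a log2 change whose size is 1 or more. Group means are given ± SD (n = 3), and log2 fold changes with their standard error (SE). The title of NC 3 carries another date than the other 8 libraries, and the counts of DEGs among these genes were the same without it. The APAP, AMSC and NC libraries are each used in more than 1 comparison, so the comparisons are not independent of each other.

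RNA of most of this program was higher 6 h after APAP. Of the 9 genes tested, 5 were DEGs with higher RNA in the APAP group than in the NC group (Hmox1, Osgin1, Srxn1, Gclc and Txnrd1), where 5.09% of all genes tested were DEGs in that direction. By adjusted p alone, Gsr and Gclm rose too, which gives 7 of 9 against 12.8% of all genes, and none of the 9 fell, against 13.1%. In 8 of 9 every APAP library was above every NC library, against 20.9% of all genes, and the exception was Nqo1. The median log2 fold change of the 9 genes was 1.204, against -0.00 over all genes tested. Since the genes were chosen with earlier results of these data known, these shares describe the set and do not test it. Because these are bulk livers, fewer cells of a type and less RNA per cell cannot be told apart.

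**Figure D1:**
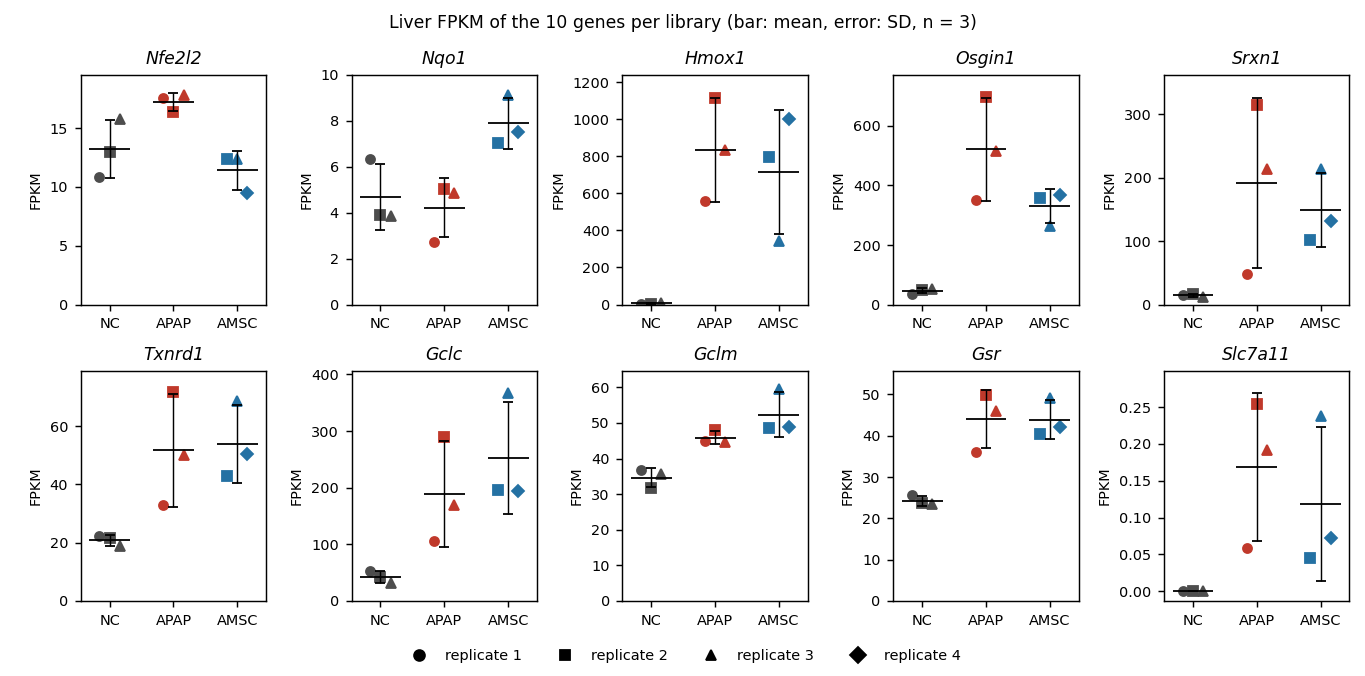
FPKM of the 10 genes (vertical axes, linear, from 0 or, for Slc7a11, just under 0) in each of the 9 libraries, with the mean (bar) and SD (error bar) of each group and the replicate number as the symbol. Hmox1, Osgin1, Srxn1, Gclc and Txnrd1 were above all NC libraries in every library of the APAP and AMSC groups, while Nfe2l2 and Nqo1 stood apart from this pattern.

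Hmox1 (ENSMUSG00000005413, chromosome 8, 75093621 to 75100589) encodes heme oxygenase 1, which breaks heme down to biliverdin, carbon monoxide and iron. It read 4.55, 4.56 and 9.92 FPKM in NC 1 to 3, 556, 1115 and 834 FPKM in APAP 1 to 3, and 795, 345 and 1003 FPKM in AMSC 2 to 4. It moved from the eighth place of the 10 genes by mean FPKM in the NC group to the first in both other groups. Its mean rose from 6.34 ± 3.10 to 835 ± 280 FPKM with APAP, a log2 fold change of 6.85 (SE 0.33, limma adjusted p = 3.09e-05). In the AMSC group the mean was 715 ± 336 FPKM, a log2 fold change of 6.55 over NC (SE 0.41, limma adjusted p = 3.39e-05). The library with the lowest Hmox1 of either treated group, AMSC 3, was still far above every NC library.

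Osgin1 (ENSMUSG00000074063, chromosome 8, 119434124 to 119446256), an oxidative stress induced growth inhibitor, was the most abundant of the 10 genes in the NC group. It read 36.6, 49.4 and 53.0 FPKM in the NC libraries, 352, 696 and 516 FPKM in the APAP libraries, and 358, 264 and 367 FPKM in the AMSC libraries. The APAP and AMSC groups overlapped, since APAP 1 lay among the AMSC libraries. Against NC, the log2 fold change was 3.43 in the APAP group (SE 0.26, limma adjusted p = 0.000185) and 2.81 in the AMSC group (SE 0.18, adjusted p = 3.78e-05).

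Srxn1 (ENSMUSG00000032802, chromosome 2, 152105516 to 152111376) encodes sulfiredoxin 1, which repairs overoxidised peroxiredoxins. Its FPKM was 15.5, 17.0 and 11.8 in the NC group, 48.9, 314 and 213 in the APAP group and 102, 214 and 131 in the AMSC group. Its APAP libraries differed most of the tested genes, with a highest value 6.43 times the lowest. The lowest of them, APAP 1, was nevertheless above every NC library. The log2 fold change against NC was 3.27 for APAP (SE 0.60, limma adjusted p = 0.00762) and 3.20 for AMSC (SE 0.26, adjusted p = 0.000127). The APAP call was lost when all genes above 0 were tested (limma adjusted p = 0.0690).

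Txnrd1 (ENSMUSG00000020250, chromosome 10, 82833951 to 82897712) encodes cytosolic thioredoxin reductase, which uses NADPH to keep thioredoxin reduced. Its values were 22.1, 21.7 and 18.8 FPKM in the NC group, 33.0, 71.8 and 50.2 FPKM in the APAP group and 42.7, 68.8 and 50.3 FPKM in the AMSC group. All 6 treated libraries were above the NC libraries, and the treated groups covered much the same range. The log2 fold change was 1.204 in APAP against NC (SE 0.26, limma adjusted p = 0.0130) and 1.31 in AMSC against NC (SE 0.17, adjusted p = 0.00140). The APAP call stood close to the minimum fold change. It fell to 0.94 without APAP 2 and to 0.95 when libraries were scaled to their total reads on genes, both under that minimum, and its adjusted p was 0.0814 (limma) when all genes above 0 were tested.

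Glutamate-cysteine ligase makes the first and limiting step of glutathione synthesis and is built from a catalytic subunit, GCLC, and a modifier subunit, GCLM. Gclc (ENSMUSG00000032350, chromosome 9, 77754535 to 77794485) read 53.0, 42.0 and 32.5 FPKM in the NC group, 106, 290 and 170 FPKM in the APAP group, and 196, 366 and 193 FPKM in the AMSC group. Its NC mean of 42.5 ± 10.2 FPKM became 189 ± 93.4 FPKM with APAP and 252 ± 99.1 FPKM with APAP and AMSCs. The log2 fold changes over NC were 2.03 (SE 0.35, limma adjusted p = 0.00575) and 2.50 (SE 0.27, adjusted p = 0.000535). When all genes above 0 were tested, the former missed the threshold (limma adjusted p = 0.0553).

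Gclm (ENSMUSG00000028124, chromosome 3, 122245557 to 122270732) moved far less. It read 36.7, 31.6 and 35.6 FPKM in the NC group, 45.0, 47.9 and 44.6 FPKM in the APAP group and 48.5, 59.5 and 48.8 FPKM in the AMSC group. The 3 groups did not overlap in any library, in the order NC, APAP, AMSC. The log2 fold change was 0.40 for APAP over NC (SE 0.12, limma adjusted p = 0.0415) and 0.58 for AMSC over NC (SE 0.12, adjusted p = 0.0104). The APAP call for Gclm rests on few libraries, as its adjusted p from limma was 0.103, 0.166 and 0.0731 without NC 1, NC 2 or NC 3, and 0.122 and 0.0648 without APAP 2 or APAP 3. It was also lost under quantile normalization (log2 fold change 0.31, limma adjusted p = 0.0881) and with scaling to total reads on genes (0.14, limma adjusted p = 0.350), a scaling that moved the median of all genes in APAP against NC to -0.22.

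As FPKM is per length, the subunit genes can be set against each other within a library. Gclc was 1.45, 1.33 and 0.913 times Gclm in NC 1 to 3, 2.36, 6.05 and 3.81 times in APAP 1 to 3, and 4.04, 6.15 and 3.96 times in AMSC 2 to 4. The subunit genes were thus near parity in the NC livers, and Gclc exceeded Gclm in every treated liver. On the log2(FPKM + 1) scale, Gclc minus Gclm was 0.26 ± 0.34 in the NC group, 1.90 ± 0.68 in the APAP group and 2.19 ± 0.36 in the AMSC group. The difference from NC was 1.64 for APAP and 1.92 for AMSC, each with a two-sided exact permutation p = 0.1, which is the smallest that 3 against 3 libraries can give (0.15 adjusted over 3 comparisons). Between the AMSC and APAP groups the difference was 0.29 (exact permutation p = 0.4 before and after adjustment), and it turned to -0.05 without APAP 1.

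**Figure D2:**
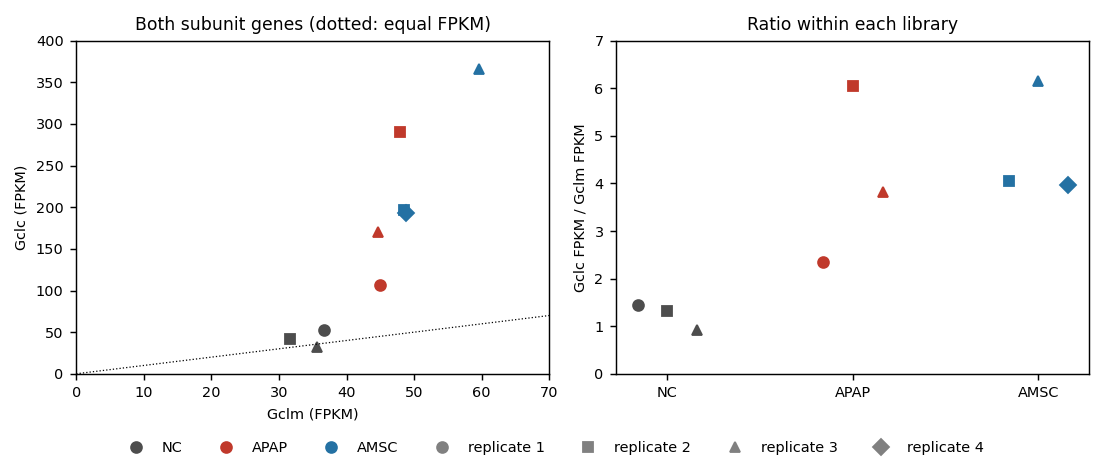
Left, Gclc against Gclm in FPKM for each library, with a dotted line at equal FPKM; right, the ratio of both FPKM values per library and group. NC libraries lie at ratios of 0.913 to 1.45 and treated libraries at 2.36 to 6.15.

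Slc7a11 (ENSMUSG00000027737, chromosome 3, 49892526 to 50443614) encodes xCT, the cystine and glutamate exchanger that brings in cystine for glutathione. It had 0 reads in all 3 NC libraries, 11, 44 and 36 reads in the APAP libraries, and 10, 43 and 15 reads in the AMSC libraries. In FPKM these were 0.0589, 0.255 and 0.192 in the APAP group and 0.0452, 0.238 and 0.0717 in the AMSC group, a very low level at which the gene failed the filter on low values. Taking 3 reads per library as the limit that a count of 0 allows (at most 0.0129 FPKM in the NC libraries), the mean was at least 13.1-fold higher in the APAP group and at least 9.15-fold higher in the AMSC group. Without AMSC 3, its highest library, the AMSC limit was 4.53-fold, and without APAP 2 the APAP limit was 9.73-fold. The lowest single libraries gave at least 4.56-fold (APAP) and 3.502-fold (AMSC). This limit covers only the counting error of the 0 reads in the NC libraries, and the reads of the treated libraries were taken at face value. Among all 24849 genes above 0, its adjusted p from limma was 0.124 for APAP against NC and 0.286 for AMSC against NC. With voom on the recovered reads of the same genes, added after seeing the data, it was 0.0107 and 0.00842. Its partner chain Slc3a2, which also serves other amino acid transporters, rose from 11.4 ± 0.801 to 24.6 ± 4.31 FPKM with APAP, a log2 fold change of 1.03 (SE 0.15, limma adjusted p = 0.00305).

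Gsr (ENSMUSG00000031584, chromosome 8, 33652523 to 33698163), glutathione reductase, returns oxidised glutathione to its thiol form with NADPH. It read 25.6, 23.7 and 23.4 FPKM in the NC group, 36.2, 49.9 and 46.1 FPKM in the APAP group and 40.5, 49.2 and 42.1 FPKM in the AMSC group. The AMSC values lay inside the range of the APAP values, and both groups were above NC throughout. The log2 fold change was 0.83 in both comparisons with NC (SE 0.15 and 0.11, limma adjusted p = 0.00644 and 0.00145), under the minimum for a DEG.

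Nfe2l2 (ENSMUSG00000015839, chromosome 2, 75675513 to 75704641), the mRNA of NRF2 itself, varied within a narrow range. Its values were 10.9, 12.9 and 15.8 FPKM in the NC group, 17.5, 16.3 and 17.8 FPKM in the APAP group, and 12.4, 12.4 and 9.52 FPKM in the AMSC group. Every APAP library was above every NC and AMSC library, while the NC and AMSC groups overlapped. The log2 fold change was 0.37 in APAP against NC (SE 0.15, limma adjusted p = 0.103) and -0.19 in AMSC against NC (SE 0.16, adjusted p = 0.425), so neither passed. Without NC 3, the first passed the adjusted p (0.50, limma adjusted p = 0.0426).

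Nqo1 (ENSMUSG00000003849, chromosome 8, 107388225 to 107403206), a quinone reductase and a textbook NRF2 target, did not follow the others. It read 6.33, 3.87 and 3.85 FPKM in the NC group, 2.74, 5.04 and 4.84 FPKM in the APAP group and 7.01, 9.12 and 7.50 FPKM in the AMSC group. The NC and APAP groups overlapped, and every AMSC library was above all 6 others. In APAP against NC the log2 fold change was -0.13 (SE 0.24, 95% interval -0.68 to 0.42, limma adjusted p = 0.717), and it became positive without NC 1 (0.07) or APAP 1 (0.09). In AMSC against NC it was 0.66 (SE 0.18, limma adjusted p = 0.0299). This call was lost when any library but NC 1 was left out (adjusted p from limma of 0.0995 without NC 2, 0.0783 without NC 3, and 0.0506, 0.0785 and 0.0728 without AMSC 2, AMSC 3 or AMSC 4). It was lost as well when all genes above 0 were tested (0.142), in a fit of all 9 libraries (0.0545) and with scaling to total reads on genes (0.0559).

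**Figure D3:**
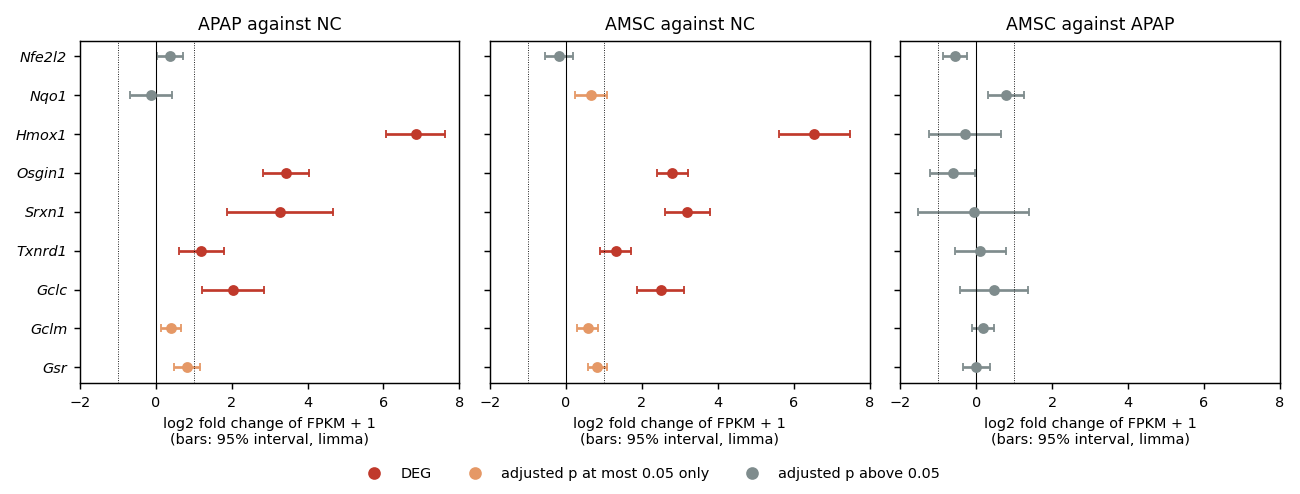
Log2 fold change of FPKM + 1 (horizontal axis) with its 95% interval for the 9 genes tested in each comparison. Dotted lines mark a log2 fold change of 1 in either direction and colors mark DEGs, genes that passed the adjusted p only and genes that did not pass. The left and middle panels each hold 5 DEGs and the right panel holds none.

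The question of the AMSC comparison was whether these genes differed once AMSCs were given with APAP. None of the 9 genes was a DEG in AMSC against APAP, where 1.96% of all genes were DEGs in either direction. None passed the adjusted p in the main limma fit (3.78% of all genes in either direction) or with voom. At an unadjusted p under 0.05, 3 of the 9 stood out in limma (Nfe2l2, Nqo1 and Osgin1), against 20.9% of all genes tested. Groups did not overlap for Nqo1 and Gclm, higher in the AMSC group, against 14.6% of all genes. Nfe2l2 was lower without overlap, against 12.4%. Set beside these shares, 3 of 9 genes is close to what genes in general showed. The median log2 fold change of the 9 genes was 0.00, against 0.01 over all genes tested.

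The values nearest to a difference were those of Nfe2l2 and Nqo1, in opposite directions. Nfe2l2 had a mean of 17.2 ± 0.781 FPKM in the APAP group and 11.4 ± 1.66 FPKM in the AMSC group, a log2 fold change of -0.56 (SE 0.14, 95% interval -0.88 to -0.24, limma adjusted p = 0.0707). Nqo1 had 4.21 ± 1.28 and 7.88 ± 1.10 FPKM, a log2 fold change of 0.80 (SE 0.20, 95% interval 0.32 to 1.27, adjusted p = 0.0808). Neither passed the adjusted p under any alternative, with ranges of 0.0552 to 0.518 and 0.0567 to 0.267. Osgin1 had 521 ± 172 and 330 ± 56.7 FPKM, a log2 fold change of -0.62 (95% interval -1.22 to -0.02, limma adjusted p = 0.226). It passed the adjusted p only in the alternative with the replicate number as a block (-0.96, limma adjusted p = 0.0433), and no sample label states a pair.

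The other 6 genes had intervals that span 0. For Gclc the log2 fold change was 0.47 (95% interval -0.43 to 1.36), for Hmox1 -0.30 (-1.26 to 0.65) and for Srxn1 -0.07 (-1.54 to 1.398). These widths leave room for differences of more than 2-fold in Srxn1, Hmox1 and Gclc. The intervals were tighter for Txnrd1, at 0.10 (-0.57 to 0.77), for Gclm, at 0.18 (-0.12 to 0.48), and for Gsr, at 0.00 (-0.36 to 0.37), and all 3 lie within a change of less than 2-fold in either direction. Adjusted p-values of these 6 genes were from 0.485 to 0.994 (limma).

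Against NC, the AMSC group showed the same 5 DEGs as the APAP group (Hmox1, Srxn1, Osgin1, Gclc and Txnrd1), where 3.92% of all genes were DEGs with higher RNA. By adjusted p alone Gsr, Nqo1 and Gclm also rose, 8 of 9 against 14.1% of all genes, and none fell, against 11.9%. In 8 of 9 every AMSC library was above every NC library, against 23.2% of all genes, and Nfe2l2 was the exception. The median log2 fold change of the 9 genes was 1.31, against 0.02 over all genes tested. The NC libraries are common to both comparisons, and the choice of the genes limits these shares in the same way.

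Libraries of 1 group did not carry the program equally. APAP 1 had the lowest value of its group for 8 of the 10 genes (38.4% of all genes tested had their lowest APAP value there) and APAP 2 the highest for 9 (29.5%). AMSC 3 was highest in its group for 8 genes (36.2%) but lowest for Hmox1 and Osgin1. Hmox1 and Osgin1 were thus lowest in the library of the AMSC group where Srxn1, Txnrd1, Gclc, Gclm and Gsr were highest. Between AMSC 2 and AMSC 4 there was no such contrast, as all of these genes but Gclc were higher in AMSC 4. Within the APAP group all but Gclm and Nfe2l2 ran together. NC 3 was lowest in its group for Nqo1, Srxn1, Txnrd1, Gclc and Gsr and highest for Nfe2l2, Hmox1 and Osgin1.

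**Figure D4:**
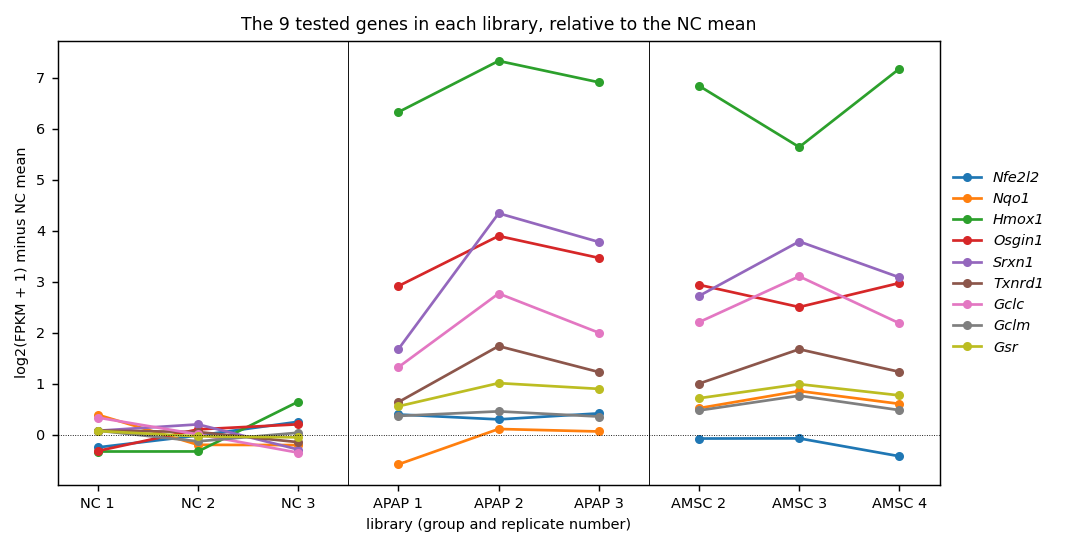
Log2(FPKM + 1) of the 9 tested genes in each library, minus the mean of the NC libraries. Lines join libraries of 1 group only to guide the eye, since replicates have no order. APAP 1 lies lowest in its group for most genes, and in AMSC 3 Hmox1 and Osgin1 dip where the other genes peak.

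Markers of other cells and of liver zones moved with the groups. The summed FPKM of 7 markers of pericentral hepatocytes, the cells that carry most APAP-oxidising P450, ran from 4476 to 5529 in NC livers, from 507 to 2283 in APAP livers and from 4288 to 4544 in AMSC livers. By adjusted p (limma), 5 of the 6 tested were lower in APAP against NC, beside 13.1% of all genes tested. In AMSC against APAP 4 were higher, beside 1.64%, and in AMSC against NC 4 were lower, beside 11.9%. Most of the sum came from Cyp2e1, the main APAP-oxidising P450, with means of 3408, 847 and 3619 FPKM in the NC, APAP and AMSC groups. The 4 that were lower in AMSC than in NC were Cyp1a2 (755 against 247 FPKM), Glul (253 against 137), Lect2 (83.1 against 47.0) and Slc1a2 (10.4 against 4.35), so the AMSC sum stood near that of NC while most single markers did not. Cyp1a2, with a mean of 376 FPKM in the APAP group, alone of the 7 had a lower mean in the AMSC group than in the APAP group. Within the APAP group the sum was 2283 in APAP 1, 507 in APAP 2 and 1161 in APAP 3, the reverse of the order of Hmox1, Nqo1, Srxn1, Txnrd1, Gclc, Slc7a11, Gsr and Osgin1. The 7 neutrophil markers summed to 0.173 to 1.66 FPKM in NC livers, 7.14 to 33.5 in APAP livers and 4.27 to 5.78 in AMSC livers. All 3 tested were higher in both treated groups than in NC, beside 12.8% (APAP) and 14.1% (AMSC) of all genes. Means in NC and APAP livers were 0.223 and 9.80 FPKM for S100a9, 0.308 and 5.70 for S100a8, and 0.131 and 2.89 for Retnlg. They were 0.0318 and 0.328 FPKM for Cxcr2 and 0 and 0.0286 for Ly6g, while Ngp and Mpo were at 0 in both groups. The 11 Kupffer cell and macrophage markers, cells that express Hmox1 as well, summed to 102 to 195 FPKM in NC livers, 152 to 379 in APAP livers and 90.6 to 150 in AMSC livers. Of these 11, all tested, 2 were higher in APAP against NC, beside 12.8% of all genes, and 1 was lower in AMSC against APAP, beside 2.14%. Erythroid markers summed to 135 to 254, 306 to 1406 and 183 to 312 FPKM in the same order. The 8 hepatocyte markers summed to 41879 to 44549 FPKM in NC livers, 57630 to 67979 in APAP livers and 52293 to 54612 in AMSC livers, ranges that did not overlap. Of these 8, all tested, 2 were higher in APAP against NC, beside 12.8% of all genes, and 3 in AMSC against NC, beside 14.1%. Alb made up most of each hepatocyte sum, with means of 28741, 44835 and 33180 FPKM in the NC, APAP and AMSC groups. Fabp1 (2659, 2475 and 2287) and Cps1 (850, 777 and 765) had lower means in both treated groups than in NC, and the other hepatocyte markers had higher means. Markers of sinusoidal endothelium summed to 18.02 to 57.3 FPKM, of stellate cells and fibroblasts to 19.5 to 55.5 FPKM and of mesenchymal stromal cells to 49.8 to 88.9 FPKM over all libraries, with the highest sum of each in APAP 1. The 6 stromal markers did not exceed 58.1 FPKM in the AMSC group, and the 4 monocyte markers summed to at most 0.596 FPKM. The part of these cells and zones in the values of the 10 genes was not tested.

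Genes of proteins that govern NRF2 formed the companion list with the largest share of changes in APAP against NC. Of 13 regulators, 10 were tested, and 6 passed the adjusted p with higher RNA in APAP against NC and none with lower, beside 12.8% and 13.1% of all genes, with a list median log2 fold change of 0.59. Maff, a small MAF protein that pairs with NRF2 or with BACH1, rose from 1.05 ± 0.267 to 174 ± 79.3 FPKM, a log2 fold change of 6.29 (SE 0.35, limma adjusted p = 5.11e-05). Mafk, of the same family, rose by 2.79 on the log2 scale (SE 0.19, adjusted p = 0.000130). Bach1, a repressor that competes with NRF2 at Hmox1, rose by 2.41 (SE 0.18, adjusted p = 0.000166). Sqstm1, whose product p62 takes KEAP1 away from NRF2, rose from 91.7 ± 2.78 to 518 ± 217 FPKM, or by 2.39 on the log2 scale (SE 0.29, adjusted p = 0.00155). Mafg, another small MAF gene, did not pass (15.0 ± 1.57 and 16.8 ± 4.92 FPKM, log2 fold change 0.11, limma adjusted p = 0.726). In AMSC against NC the same counts held, 6 higher and none lower, led by Maff (5.74), Sqstm1 (2.68), Bach1 (2.01) and Mafk (1.91). None of the 10 passed in AMSC against APAP, where 1.64% of all genes passed with higher and 2.14% with lower RNA.

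Of 26 genes of glutathione turnover and cysteine supply, 16 were tested. In APAP against NC, 4 rose and 2 fell by adjusted p, beside 12.8% and 13.1% of all genes. Chac1, which breaks glutathione down inside the cell, rose from 0.347 ± 0.0963 to 19.1 ± 11.001 FPKM, a log2 fold change of 3.68 (SE 0.46, limma adjusted p = 0.00163). Its relative Chac2 fell by 1.02 on the log2 scale (SE 0.16, adjusted p = 0.00424), and Csad, which leads cysteine sulfinate toward taurine, fell by 1.38 (SE 0.27, adjusted p = 0.00913). In AMSC against NC, 9 rose and 2 fell, beside 14.1% and 11.9% of all genes. Chac1 reached 63.1 ± 10.2 FPKM there (log2 fold change 5.56, SE 0.14, limma adjusted p = 3.55e-07), Slc3a2 rose by 1.01 (SE 0.14, adjusted p = 0.00152), Cdo1, a cysteine dioxygenase, rose by 0.85 (SE 0.12, adjusted p = 0.00199), and Chac2 fell by 1.41 (SE 0.16, adjusted p = 0.000731). Glutathione synthetase, Gss, had 11.6 ± 0.978, 15.9 ± 3.21 and 16.5 ± 0.646 FPKM in the NC, APAP and AMSC groups and passed only in AMSC against NC (0.47, limma adjusted p = 0.0122). In AMSC against APAP, Csad was the 1 gene of the list that passed, with 14.7 ± 4.002 against 49.9 ± 10.1 FPKM and a log2 fold change of 1.71 (SE 0.23, limma adjusted p = 0.0111). Chac1 was higher there in every library but did not pass (1.88, SE 0.46, adjusted p = 0.0725).

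**Figure D5:**
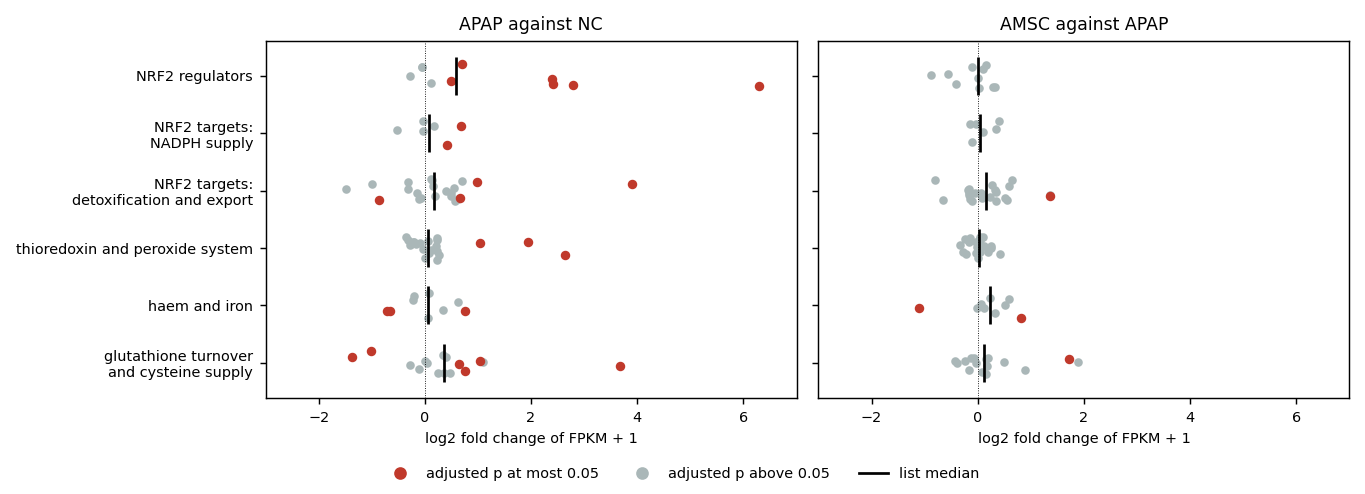
Log2 fold change of FPKM + 1 for each tested gene of 6 companion lists in APAP against NC (left) and AMSC against APAP (right), spread vertically at random within a list. Red points passed the adjusted p from limma (24 genes at left, 4 at right) and black bars are list medians.

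Other NRF2 targets were less uniform than the 10 genes. Of 27 genes of detoxification and export, 22 were tested, and in APAP against NC 3 rose and 1 fell, a share of higher genes close to the 12.8% over all genes and of lower genes under the 13.1%. Gsta1, a glutathione S-transferase, rose from 1.14 ± 0.0648 to 40.2 ± 27.9 FPKM (log2 fold change 3.89, SE 0.60, limma adjusted p = 0.00374), Akr1b8, an aldo-keto reductase, rose by 0.97 and Ugdh, which makes the donor for glucuronidation, by 0.66, while Gsta3 fell by 0.86. In AMSC against NC 6 rose and 1 fell, beside 14.1% and 11.9% of all genes, led by Gsta1 (3.24), Ugdh (1.31), Cbr3 (1.17) and Aox1 (0.66). In AMSC against APAP, where 1.64% of all genes rose, 1 gene of the list did, Gstm3, from 9.71 ± 4.54 to 25.2 ± 4.92 FPKM (log2 fold change 1.36, SE 0.29, limma adjusted p = 0.0465). Gsta and Gstm genes have near-identical relatives among which the counting may have divided reads, which makes the value of each member uncertain.

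All 6 genes of NADPH supply were tested, and in APAP against NC 2 rose and none fell, beside 12.8% and 13.1% of all genes. Pgd rose by 0.68 (SE 0.18, limma adjusted p = 0.0269) and G6pdx by 0.41 (SE 0.12, adjusted p = 0.0362) on the log2 scale in APAP against NC. Both encode dehydrogenases of the pentose phosphate pathway, a source of the NADPH that the products of Gsr and Txnrd1 use. In AMSC against NC 1 passed, Pgd (0.79, limma adjusted p = 0.00254), where 14.1% of all genes rose.

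Of 23 genes of the thioredoxin and peroxide system, 22 were tested, and the same number, 3 higher and none lower, passed in APAP against NC and in AMSC against NC, close to the 12.8% and 14.1% of all genes that passed with higher RNA. These were Sesn2, a sestrin (2.64 and 2.68), Txnip, which binds and inhibits thioredoxin (1.95 and 1.91), and Gpx3, a secreted glutathione peroxidase (1.04 and 0.75). The other 19, the genes of the thioredoxins and peroxiredoxins on which Txnrd1 and Srxn1 act among them, did not pass, and the list medians were 0.06 and 0.03.

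All 9 genes of heme and iron handling were tested. By adjusted p, 1 rose and 2 fell in APAP against NC, beside 12.8% and 13.1% of all genes. In AMSC against APAP 1 rose and 1 fell, beside 1.64% and 2.14%, and in AMSC against NC 3 rose and 1 fell, beside 14.1% and 11.9%. In APAP against NC, Fth1, the ferritin heavy chain, rose by 0.76 (SE 0.19, limma adjusted p = 0.0255), while Slc40a1, the iron exporter ferroportin, fell by 0.71 (SE 0.21, adjusted p = 0.0446) and Blvrb, a biliverdin reductase, fell by 0.65 (SE 0.14, adjusted p = 0.0130). In AMSC against APAP, Blvrb rose by 0.81 (SE 0.14, limma adjusted p = 0.0278), and Tfrc, the transferrin receptor, fell by 1.11 (SE 0.20, adjusted p = 0.0309). Against NC, the AMSC group had higher Ftl1 (0.84), Fth1 (0.81) and Slc48a1 (0.58) and lower Tfrc (-0.77). Ferritin genes have many processed copies in the genome, so the values of Fth1 and Ftl1 are uncertain. Blvrb is also abundant in red cells. Its means were 31.6, 19.9 and 35.4 FPKM in the NC, APAP and AMSC groups. The erythroid marker sums moved in the opposite direction, at 135 to 254, 306 to 1406 and 183 to 312 FPKM. The part of red cells in Blvrb was not tested.

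Over all 6 lists, 85 of 104 genes were tested. In APAP against NC 19 rose and 5 fell, beside 12.8% and 13.1% of all genes. Against NC the AMSC group had 28 higher and 4 lower, beside 14.1% and 11.9%, and in AMSC against APAP 3 rose and 1 fell, beside 1.64% and 2.14%. List medians were 0.16, 0.25 and 0.05, against -0.00, 0.02 and 0.01 over all genes tested.

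The genes whose pattern over the 9 libraries lay nearest to each DEG were found by the root mean square difference of log2(FPKM + 1) from the NC mean. They were Fos (0.41) and Egr1 (0.52) for Hmox1, Gsta1 (0.39) and Gm3776 (0.44) for Srxn1, Shb (0.16) and Atp1b1 (0.19) for Txnrd1, Psat1 (0.34) and Mfsd2a (0.37) for Gclc, and Angptl4 (0.12) and H3f3b (0.24) for Osgin1. Fos and Egr1 are immediate early transcription factors, Psat1 makes serine and Angptl4 inhibits lipoprotein lipase. This measure uses all 3 groups, so it follows mainly the distance between NC and the treated livers.

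Overlapping annotation bore little on the 10 genes. Hmox1, Nqo1, Srxn1, Gclc and Osgin1 overlapped no other gene, and the neighbors that overlap Nfe2l2, Gsr, Txnrd1 and Gclm held at most 1, 5, 26 and 22 reads in any library. The genes that overlap Slc7a11 were at 0. Whether the counting used strand is not given in the sources used here.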

How the data were processed

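Liver RNA of 9 mice was sequenced, and the authors deposited FPKM values per gene with gene lengths and coordinates. The submitters' processing notes name GRCm38 and mm10, and 98.33% of 54409 gene identifiers shared with GENCODE vM21 had the same start and end. The aligner and counting program are not given in the sources used here. The study's methods state 3 biological replicates per group. FPKM multiplied by gene length gave whole reads (within 0.1) for 100.0% of the values above 0, and 29683 genes were at 0 in all libraries. The deposited denominators followed median-of-ratios size factors, so each change is relative to the middle gene.

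Groups came from the sample labels. Genes with a mean of 1 FPKM or more (9699) were tested as log2(FPKM + 1), a pseudocount of 1, with limma 3.58.1 (lmFit, eBayes with trend) in R 4.3.3, with only both groups of a comparison in a fit and Benjamini-Hochberg adjustment over all genes. The scripts were tested on simulated data. The 10 genes, the companion lists and the tests were chosen with earlier results of these data known. From each list, at most 4 genes per comparison were named, those that passed the adjusted p with the largest log2 fold change, and Gss and Mafg, outside this rule, were named after their values were seen. Deviations of same-numbered APAP and NC libraries had correlations of 0.213, 0.160 and 0.378 across genes, for the numbers 1, 2 and 3. Libraries of unequal number were not compared, so these values cannot show that the numbers pair the libraries. No sample label states a pair, and the title of NC 3 bears another date and number. The main fits therefore held no block, and the replicate number was a block only in an alternative. Alternatives were a pseudocount of 0.1, no filter, a filter of 5 FPKM, quantile normalization, 1 fit of all 9 libraries, the replicate block, voom on the recovered reads, calls by adjusted p alone and each library left out in turn. Scaling to total reads on genes, voom on all genes above 0, the Slc7a11 limit without the highest library and the motif TGAGNNNGC were added after seeing the data. Plots were made in matplotlib 3.10.9 (Python 3.11.15), and tables were handled with numpy 2.4.6 and pandas 2.3.3.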

Additional observations from a re-analysis of the deposited data

How the results depend on the processing

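For the 9 genes tested and 3 comparisons, 381 of 405 alternative values of a log2 fold change kept their direction and their side of the DEG thresholds. Another filter, 1 fit of all 9 libraries and no minimum fold change leave the log2 fold change as it was. Those settings could alter only the call, so the count overstates how far direction was tried. The count of DEGs among these genes in APAP against NC was 2 when all genes above 0 were tested (Hmox1 and Osgin1 remained), and over the replicates left out it was 4 to 5. With scaling to total reads on genes it was 4 in APAP against NC. With no minimum fold change the count was 7 in APAP against NC and 8 in AMSC against NC. No alternative gave a DEG in AMSC against APAP. Direction changed only for differences near 0. With each replicate left out in turn, the log2 fold change ran from -0.26 to 0.0910 for Nqo1 in APAP against NC, and in AMSC against APAP from -0.61 to 0.15 for Hmox1, -0.86 to 0.47 for Srxn1, -0.18 to 0.37 for Txnrd1 and -0.13 to 0.10 for Gsr. The difference of Gclc to Gclm in AMSC against APAP ran from -0.0530 to 0.62. Under quantile normalization Srxn1 was at 0.0582 and Gsr at -0.0034 in AMSC against APAP. The causes of these changes were not tested.

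With the replicate number as a block, 5, 0 and 5 of these genes were DEGs in APAP against NC, AMSC against APAP and AMSC against NC, as without it, and Txnrd1 (-0.14) and Gsr (-0.10) turned in AMSC against APAP. In APAP against NC the block changed no call. The AMSC group shares only the numbers 2 and 3 with the others, and those libraries did not deviate together (correlations -0.104 and -0.293 with APAP, -0.199 and -0.309 with NC). No sample label states a pair in any comparison. Under that block Osgin1 passed the adjusted p in AMSC against APAP (-0.96, adjusted p = 0.0433 from limma), Gclm lost it in AMSC against NC (0.129), and the DEGs among all genes went from 190 to 335 in AMSC against APAP. Depth limits Slc7a11 most, at no more than 44 reads in a library, and 3 libraries a group limit all intervals.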
